A study of Mus musculus with 8 samples.

Results

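The genes described here are the protein-coding zinc finger genes of the mouse whose symbol is Zfp followed by a 3-digit number that begins with 7 or 9. The rule that picked them used only the class and the symbol in the expression table, but earlier results of these data were known when it was set. The table held 73 such genes, 38 named Zfp7xx and 35 named Zfp9xx, among 21980 protein-coding genes and 53710 gene IDs of all classes. RNA sequencing was done on total RNA of pineal glands from wild type and 5xFAD mice, all stated to be male, with 4 libraries in each group. Each library was a pool of the glands of 5 to 7 mice, killed at 5 months of age and 0.5 h after lights on. 5xFAD mice carry human transgenes with changes found in familial Alzheimer's disease, among them APP with the Swedish, Florida and London changes, driven by a Thy1 promoter that is active in neurons, and they accumulate amyloid-beta in the brain. The wild type mice were C57BL/6 and came from another supplier than the 5xFAD mice (B6.Cg), so supplier or substrain and genotype cannot be told apart.

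Most of these genes belong to the family of KRAB zinc finger proteins. Such a protein carries a KRAB domain near its start, which binds the co-repressor TRIM28 (KAP1), and a row of C2H2 fingers, each of which holds a zinc ion with a pair of cysteines and a pair of histidines and reads a few bases of DNA. TRIM28 in turn recruits the histone methyltransferase SETDB1, HP1 proteins and the NuRD complex, and the bound DNA, often an endogenous retrovirus or another transposable element, is silenced. The family has grown by local duplication, its genes lie in clusters of near copies, and its content and expression are known to vary between mouse strains.

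A C2H2 finger was searched as C-x2-C-x12-H-x3 or x4-H in the translation of each gene's longest coding transcript, and the KRAB A box as the best ungapped match to a 37-residue consensus made from the members. A box was found in 57 of the 73 genes, with at least 17 identical residues, while the other 16 reached at most 12. The member just inside the limit was Zfp773 with 17, and those just outside were Zfp956 with 12 and Zfp746 with 11. The number of fingers had a median of 11 and ranged from 0 to 23, the most being found in Zfp748 and Zfp788, and 5 genes had no finger of this spacing. The 16 genes without a box included Zfp704, Zfp703, which is a relative of the developmental NocA-type regulators, and Zfp706, a small protein with 1 finger. They also included Zfp746 (PARIS), a substrate of parkin that represses the gene for PGC-1alpha, and Zfp750, a regulator of epidermal differentiation. PARIS is itself described as a KRAB protein, so a divergent box can be missed by this search. The coding sequences of the box and of the first finger are shown for the members on which the comparisons below turn. They were read from the GENCODE M21 transcripts (GRCm38) of Zfp738 (chr13:67658685-67687071, minus strand), Zfp930 (chr8:69209038-69230536, plus strand), Zfp949 (chr9:88548020-88571061, plus strand) and Zfp771 (chr7:127244274-127254803, plus strand). In the box the capitals are the codons of residues that equal the members' consensus, and in the finger they are the codons of the cysteines and histidines that hold the zinc. No box was found in Zfp771, so only its finger is given.
Zfp738 KRAB A box: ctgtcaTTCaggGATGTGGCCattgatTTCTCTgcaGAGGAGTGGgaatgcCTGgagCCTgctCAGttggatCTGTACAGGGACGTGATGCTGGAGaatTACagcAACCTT
Zfp930 KRAB A box: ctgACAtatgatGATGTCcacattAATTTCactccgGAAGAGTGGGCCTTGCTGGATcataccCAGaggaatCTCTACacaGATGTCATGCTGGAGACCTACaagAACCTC
Zfp949 KRAB A box: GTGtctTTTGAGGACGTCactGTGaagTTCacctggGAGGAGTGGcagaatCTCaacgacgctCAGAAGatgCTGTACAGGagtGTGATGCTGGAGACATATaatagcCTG
Zfp738 finger: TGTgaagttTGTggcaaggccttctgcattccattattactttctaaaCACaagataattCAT
Zfp930 finger: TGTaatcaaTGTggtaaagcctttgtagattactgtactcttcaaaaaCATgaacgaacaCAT
Zfp949 finger: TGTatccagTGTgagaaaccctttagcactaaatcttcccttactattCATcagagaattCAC
Zfp771 finger: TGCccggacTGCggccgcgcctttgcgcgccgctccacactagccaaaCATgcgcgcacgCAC
The boxes of Zfp738, Zfp930 and Zfp949 equalled the consensus at 23, 24 and 23 of 37 codons.

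Before the groups were compared, the libraries were checked against their labels. Of the 12 pinealocyte markers all passed a mean of 1 FPKM (fragments counted on a gene, scaled by its length in kilobases and by the mapped fragments of the library), and their summed level was 1564 to 3534 FPKM in the wild type and 2375 to 3849 FPKM in the 5xFAD libraries. Xist, which is transcribed from the inactive X chromosome, stood at 13.3 FPKM in the wild type library Normal-22 and at no more than 0.0404 FPKM in the other 7, while the Y-linked Ddx3y was present in all 8. For Zfp930, Zfp938, Zfp964 and Zfp956, in which Normal-22 was high, values without this library are given as well. Normal-22 was also high in other genes, among them Zfp949 and Zfp868, for which such values are not given. In the study's read statistics, Normal-21, Normal-22, Normal-23 and 5xFAD-21 have a high and the other 4 libraries a low share of unread bases, and differences within each of these sets are given for the leading members. The GC rate of the reads parts the groups fully there, and it cannot be told apart from genotype. The summed level of 8 osteoblast markers ranged from 37.2 to 1999 FPKM over the libraries, and that of 8 neutrophil markers from 20.7 to 458 FPKM. Choroid plexus markers summed to 9880 to 20259 FPKM in wild type and to 197 to 842 FPKM in 5xFAD, where Ttr was listed at 0. These ranges do not overlap, so this sum and genotype cannot be told apart. It was not compared with the members, and its list shares Otx2 with the pinealocyte list. The mouse genes App and Thy1 had log2 fold changes of −0.07 and 0.48 with adjusted p values of 0.882 and 0.841 (limma), and they say little of the human transgenes. Nnt, of which the C57BL/6J substrain lacks several exons, was measured at 6.05 to 10.2 FPKM in all libraries, and a level over the whole gene does not show whether those exons are present.

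The zinc finger genes were expressed at low to moderate levels in both groups. Of the 73 genes, 65 reached a mean level of 1 FPKM across the 8 libraries and were tested, 33 of the Zfp7xx and 32 of the Zfp9xx genes. Their mean levels ran from 1.09 FPKM in Zfp941 to 30.97 FPKM in Zfp706, with a median of 7.08 FPKM, beside 10.4 FPKM for the 13094 tested protein-coding genes and 6.32 FPKM for the 233 other tested genes named Zfp and a number. A level of 5 FPKM or more was reached by 47 members, of 10 or more by 21 and of 20 or more by 5. Together the members made up 0.145 to 0.181% of the summed FPKM of protein-coding genes, and these shares overlapped between the groups.

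**Figure D1:**
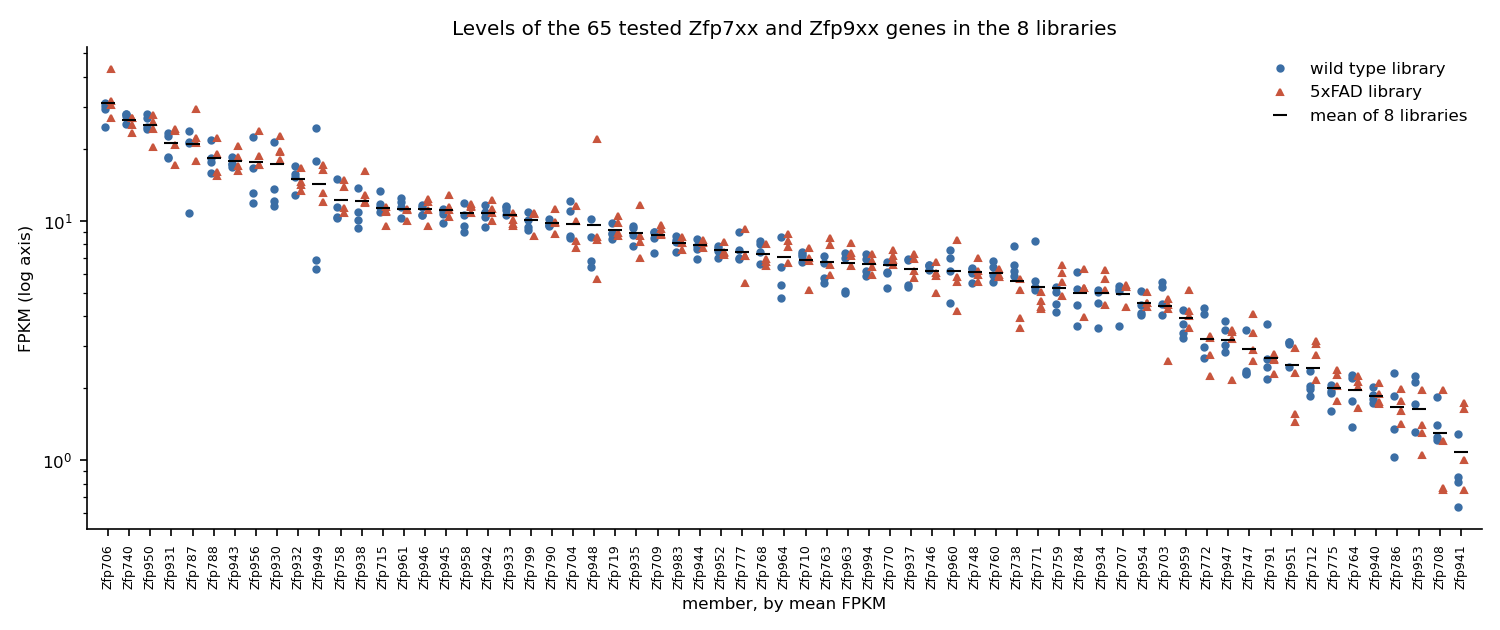
FPKM (vertical log axis) of each of the 65 tested members in the 4 wild type (circles) and 4 5xFAD (triangles) libraries, ordered by their mean over 8 libraries (dashes). The levels fall from 30.97 FPKM in Zfp706 to 1.09 FPKM in Zfp941, and in most members the symbols of both groups lie among each other.

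The highest level was that of Zfp706, which restrains Klf4 in embryonic stem cells as they leave the pluripotent state. Here and for other genes, values by library follow the numbers of the libraries, 11, 21, 22 and 23 in wild type (Normal) and 1, 2, 3 and 21 in 5xFAD. Zfp706 measured 29.3, 24.7, 31.2 and 30.2 FPKM in wild type against 26.98, 30.6, 31.8 and 43.1 FPKM in 5xFAD. The last of these stood above all others, and the remaining 3 of its group lay within or next to the wild type range. Zfp740 followed with 27.1 ± 1.25 FPKM in wild type against 25.6 ± 1.68 FPKM in 5xFAD (mean ± SD, n = 4 libraries each, as for all such levels below), and Zfp950 with 25.9 ± 1.78 and 24.5 ± 3.17 FPKM. Neither of these neighbours in the order differed from the other beyond its spread. Zfp931 at 20.7 ± 2.60 and 21.4 ± 3.24 FPKM, Zfp787 at 19.2 ± 5.79 and 22.6 ± 4.79 FPKM and Zfp788 at 18.4 ± 2.48 and 18.2 ± 3.14 FPKM came next, with ranges that overlapped one another. In none of these 6 genes did the groups separate, and their adjusted p values in limma were 0.764, 0.799, 0.841, 0.934, 0.787 and 0.979. The direction of Zfp950, Zfp931 and Zfp788, whose log2 fold changes lay within 0.1 of zero, turned under other settings.

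The other 8 genes did not reach a mean of 1 FPKM. Zfp735 and Zfp967 were listed at 0 in all 8 libraries. Zfp936 was above 0 only in 5xFAD-1 (0.0432 FPKM) and Zfp957 only in Normal-21 (0.0278 FPKM). Zfp711, Zfp750, Zfp773 and Zfp781 were above 0 in every library, with means of 0.693, 0.258, 0.450 and 0.805 FPKM. No member was listed at 0 throughout one group and above 0 throughout the other.

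Which members differed between 5xFAD and wild type glands was asked by a limma fit over all 13094 protein-coding genes, on log2(FPKM + 0.1). None of the 65 tested members passed an adjusted p of 0.05, where 0.0382% of all tested genes did (5 genes). At an unadjusted p under 0.05 there was 1 member higher in 5xFAD, Zfp930, against 4.6% of all tested genes, and 1 member lower, Zfp738, against 3.35%. As a share, 3.08% of the members were below that p in either direction, which is less than the 7.95% of all tested genes. Without Normal-22 there were 5 members higher and 2 lower (10.8%), beside 18.1% of all tested genes. The 4 libraries of 5xFAD lay below the 4 of wild type in 2 members, Zfp738 and Zfp771, where 2.23% of all tested genes did, and this is 3.08% of the members. In no member did they lie above, where 2.11% of all tested genes did. In bulk glands, fewer cells of a type and less RNA per cell cannot be told apart, for these genes as for any other.

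The fold changes of the members were small and centred close to no change. Of the 65 members, 40 had a log2 fold change above 0 and 25 below, from −0.53 in Zfp951 and Zfp738 to 0.48 in Zfp930. The median was 0.043, beside −0.007 over all tested genes and −0.042 over the 233 other numbered Zfp genes. A log2 fold change beyond 0.5 in either direction was found in 2 members (3.08%), beside 11.3% of all tested genes. The median half-width of the 95% interval of a member, not adjusted over genes, was 0.349 on the log2 scale. Changes of a member smaller than this were mostly not detectable with 4 libraries a group even before adjustment. For the adjusted p the limit lay higher, as Zfp738 at −0.53 had an adjusted p of 0.580 (limma). The residual SD between libraries of a group had a median of 0.205 in the members, 0.190 in the other numbered Zfp genes and 0.256 in all tested genes, again on the log2 scale. Scaling all libraries to the same protein-coding total moved the unadjusted calls of all genes from 602 higher and 439 lower to 887 higher and 217 lower, while the members stayed at 1 and 1 and their median became 0.074. With the class of unread bases as a term there were 1 member higher and 2 lower at an unadjusted p under 0.05 (4.62%). Of all tested genes 12.3% were below that p, and the median of the members was 0.042.

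**Figure D2:**
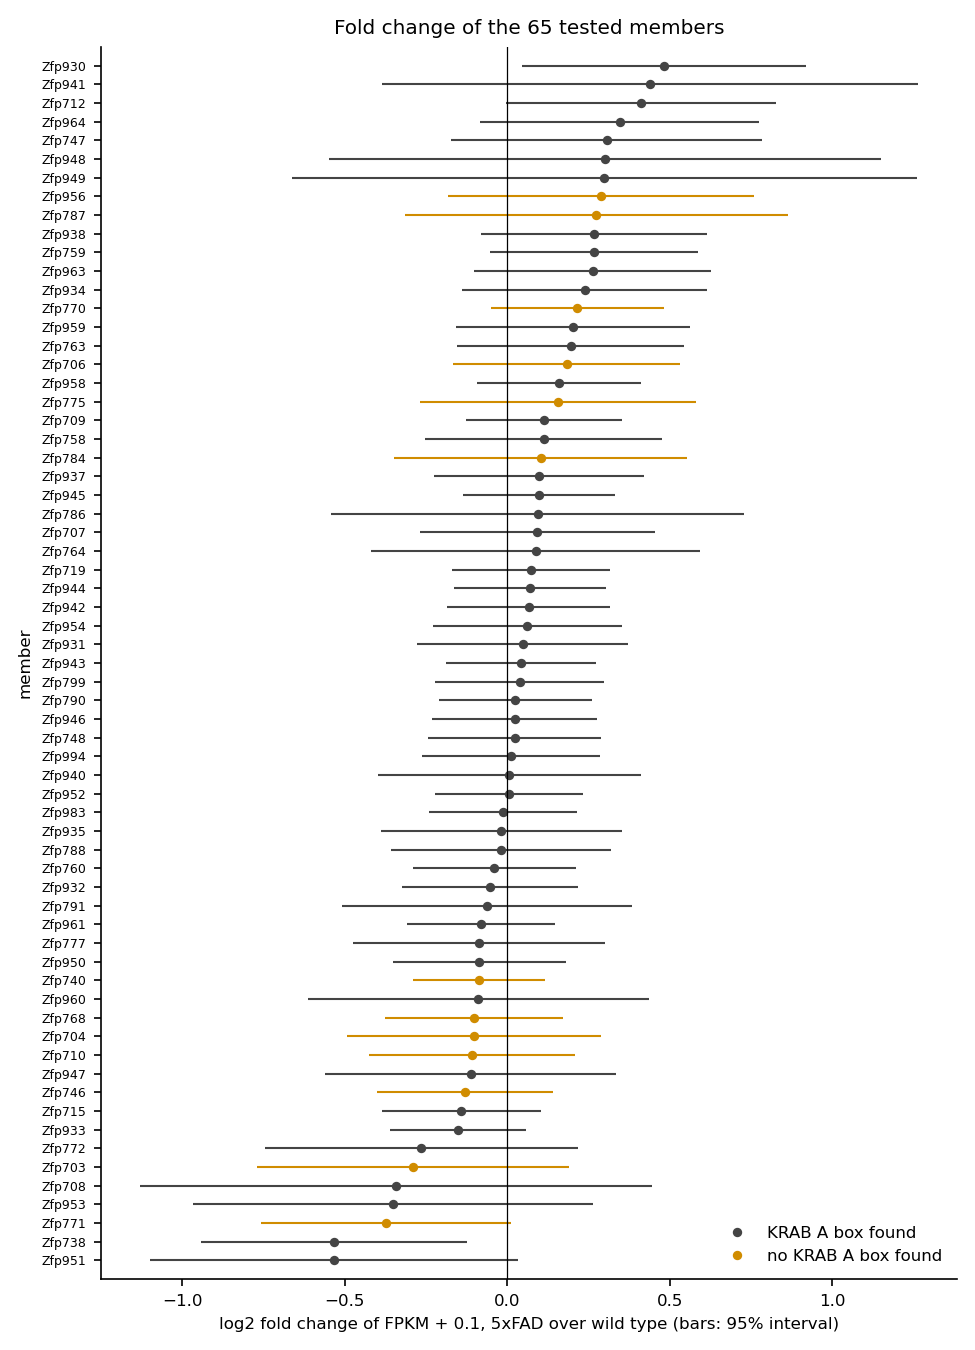
Log2 fold change of FPKM + 0.1, 5xFAD over wild type (horizontal axis), of the 65 tested members with its 95% interval from limma, dark where a KRAB A box was found and orange where not. The points run from −0.53 to 0.48, and the interval leaves out 0 in Zfp738 and Zfp930 alone, neither of which passed the adjusted p.

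Zfp738 had the smallest p of the members. It lies in the chromosome 13 cluster of KRAB genes and has 20 fingers. Its levels were 7.83, 6.15, 5.88 and 6.55 FPKM in the wild type pools, and 5.13, 3.92, 5.74 and 3.57 FPKM in those of 5xFAD. All 5xFAD libraries lay below all wild type libraries, with the highest 5xFAD library close under the lowest wild type one. The log2 fold change was −0.53 ± 0.18 (SE, 95% interval −0.94 to −0.12), 1.45-fold lower, with an adjusted p of 0.580 in limma. Within the libraries of low and of high unread bases, the mean log2 level in 5xFAD minus that in wild type was −0.67 and −0.78. Of the stretches of 100 bases in its transcripts, 12.01% occurred in another gene, 3.96% on the same strand and the rest on the opposite strand, led by Gm26587 (5.82%).

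Zfp771, a gene with 8 fingers and no KRAB box, was the other member with separate groups. Wild type pools held 5.12, 8.21, 5.28 and 5.62 FPKM of it, and 5xFAD pools 4.30, 4.35, 5.03 and 4.63 FPKM. Normal-21 was far above the other wild type libraries, and the gap between the groups was small. The log2 fold change of −0.37 ± 0.17 had an adjusted p of 0.629 (limma), and the differences within the low and high sets were −0.17 and −0.42. Without Normal-21 the log2 fold change was −0.22. None of its stretches of 100 bases occurred in another gene.

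Among the remaining members with the smallest p values in the lower direction was Zfp951 on chromosome 5, a KRAB gene with 10 fingers. Its wild type levels were 3.06, 3.11, 3.13 and 2.45 FPKM and its 5xFAD levels 2.32, 1.56, 2.96 and 1.45 FPKM. The ranges overlapped through Normal-23 and 5xFAD-3, and the log2 fold change was −0.53 ± 0.25. Zfp933 on chromosome 4 was the steadiest of these genes, with 11.1 ± 0.432 FPKM in wild type against 10.03 ± 0.573 FPKM in 5xFAD and a log2 fold change of −0.15 ± 0.09. Zfp703 measured 4.84 ± 0.704 and 4.01 ± 0.956 FPKM, Zfp715 11.8 ± 1.05 and 10.7 ± 0.831 FPKM, Zfp953 1.85 ± 0.428 and 1.43 ± 0.385 FPKM, and Zfp772 3.52 ± 0.811 and 2.88 ± 0.486 FPKM. The log2 fold changes of these 4 genes were −0.29, −0.14, −0.35 and −0.26, and the adjusted p values of all 6 genes were 0.630 to 0.749 (limma). Single libraries carried much of these differences, which were −0.10 in Zfp703 without 5xFAD-1, −0.084 and −0.086 in Zfp715 without Normal-11 or 5xFAD-3, −0.23 in Zfp953 without 5xFAD-21, and −0.15 and −0.16 in Zfp772 without 5xFAD-2 or Normal-23.

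In the higher direction Zfp930 on chromosome 8, a KRAB gene with 12 fingers, led the members. It measured 12.1, 11.5, 21.3 and 13.6 FPKM in wild type, and 22.5, 19.5, 19.6 and 17.9 FPKM in 5xFAD. Normal-22 lay among the 5xFAD libraries, while the other 3 wild type libraries were below all of them. The log2 fold change was 0.48 ± 0.19 (SE, 95% interval 0.05 to 0.92), 1.40-fold higher, with an adjusted p of 0.607 in limma. Without Normal-22 it was 0.68 with an adjusted p of 0.0541, the smallest adjusted p of any member under any setting used here. Leaving out that library also took the count over all tested genes from 5 to 94. Over the 8 fits that each left out 1 library, the log2 fold change of Zfp930 ran from 0.38 to 0.68, and its unadjusted p stayed under 0.05 in 2 of them, without Normal-22 and without 5xFAD-21, and not in the other 6. Within the low and high sets of unread bases, 5xFAD minus wild type was 0.76 and 0.26, each set holding a single library of one of the groups. No stretch of 100 bases of Zfp930 occurred in another gene.

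Zfp712 in the chromosome 13 cluster followed, a KRAB gene with 20 fingers. Its wild type libraries held 2.04, 1.86, 2.36 and 1.98 FPKM and its 5xFAD libraries 2.77, 2.17, 3.07 and 3.15 FPKM. Only 5xFAD-2 and Normal-22 stood in the way of separate groups, and the log2 fold change was 0.41 ± 0.18 (adjusted p = 0.629, limma). Zfp759, in the same cluster, had 4.75 ± 0.514 and 5.75 ± 0.715 FPKM. Zfp770, which has no KRAB box, had 6.04 ± 0.619 and 7.01 ± 0.425 FPKM, and Zfp938 had 10.996 ± 1.91 and 13.2 ± 2.01 FPKM. Their log2 fold changes were 0.27, 0.22 and 0.27 with adjusted p values of 0.652, 0.654 and 0.676 (limma). Zfp747 measured 2.61 ± 0.594 and 3.25 ± 0.642 FPKM with a log2 fold change of 0.31, and 10.5% of its stretches of 100 bases were shared with other genes. Leaving out 5xFAD-1 lowered the log2 fold change of Zfp938 to 0.17 and that of Zfp747 to 0.19, and without Normal-22 that of Zfp938 was 0.38 (adjusted p = 0.224, limma).

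Several members varied more between libraries than between the groups, and they were picked after their values were seen. The range over the 8 libraries on log2(FPKM + 0.1) was above 1 in 10 of the 65 members, and its median was 0.577 in the members, beside 0.782 in all tested genes. Zfp949 had the widest range. Its wild type pools held 17.8, 6.89, 24.3 and 6.28 FPKM, and its 5xFAD pools 17.1, 11.96, 16.3 and 13.02 FPKM. The wild type libraries fell apart into 2 high and 2 low ones, and the 5xFAD libraries lay between them. Its neighbours on chromosome 9 varied less, with 20.7 to 24.9 FPKM in Snx14 and 19.9 to 33.9 FPKM in Syncrip, and in neither gene did Normal-21 and Normal-23 stand apart from the rest.

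Zfp948 on chromosome 17 stood at 21.98 FPKM in 5xFAD-2 and at 5.69 to 10.2 FPKM in the other 7 libraries. The neighbouring KRAB gene Zfp52 was also highest in 5xFAD-2, at 16.6 FPKM against 4.34 to 11.3 FPKM elsewhere. 5xFAD-2 is the library with the largest sum of brown adipocyte markers, 1321 FPKM against 24.997 to 113 FPKM in the others, and the part of this in the level of Zfp948 was not tested. Without 5xFAD-2 the log2 fold change of Zfp948 was −0.09 in place of 0.30. Zfp787 was lowest in Normal-11 at 10.7 FPKM and highest in 5xFAD-1 at 29.2 FPKM, with the other 6 libraries between 17.8 and 23.8 FPKM. The least abundant tested member, Zfp941, ran from 0.637 FPKM in Normal-11 to 1.73 FPKM in 5xFAD-1.

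**Figure D3:**
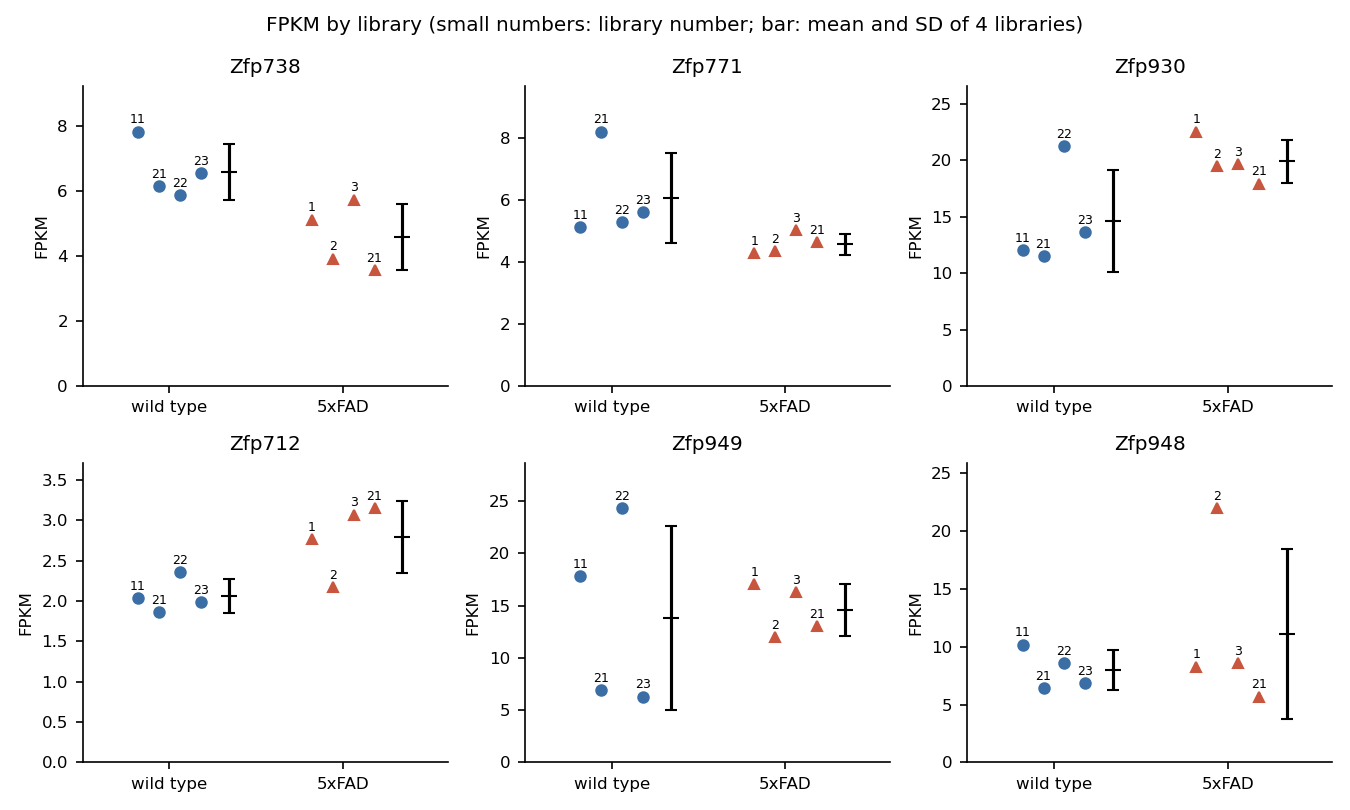
FPKM (vertical axis, from 0) of 6 members in each of the 4 wild type (circles) and 4 5xFAD (triangles) libraries, with the library number above each symbol and the mean and SD of the group beside it. Zfp738 and Zfp771 have separate groups, Normal-22 stands with the 5xFAD libraries in Zfp930, the wild type libraries of Zfp949 lie at 6.28 and 6.89 or at 17.8 and 24.3 FPKM, and Zfp948 is high in 5xFAD-2.

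Because genes of this family lie in clusters, members were grouped where 3 or more followed each other with neighbouring starts at most 1 Mb apart. This gave 8 clusters with 39 of the 73 members, and the members as a whole lay on 16 chromosomes. The largest cluster, 11 genes on chromosome 17 (chr17:21567008-22867134), was fully tested. Its log2 fold changes ran from −0.11 to 0.30 with a median of 0.043, 8 above 0 and 3 below, and its smallest p was 0.372. Its genes stood at mean levels of 3.19 to 17.8 FPKM, such as Zfp942 at 10.6 ± 0.926 FPKM in wild type against 11.1 ± 0.948 FPKM in 5xFAD and Zfp945 at 10.7 ± 0.613 and 11.4 ± 1.00 FPKM. The Zfp942, Zfp945 and Zfp760 levels of the groups overlapped, as those of every gene of the cluster did.

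The cluster of 6 genes on chromosome 13 (chr13:67038596-67687071) held members on either side of 0. Zfp712, Zfp759 and Zfp748 had log2 fold changes of 0.41, 0.27 and 0.02, and Zfp708, Zfp953 and Zfp738 of −0.34, −0.35 and −0.53. The median was −0.16. Zfp708, which binds and silences a class of retroelements, had a mean of only 1.30 FPKM. Of its stretches of 100 bases 94.3% also occurred in other genes, 94.0% in Gm28557, so that reads of these genes cannot be fully told apart. Whether Gm28557 is a copy or overlaps the same locus was not tested. The cluster of 5 genes on chromosome 6 (chr6:47819266-48623227) had a median of 0.094, from −0.13 in Zfp746 (6.44 ± 0.152 and 5.91 ± 0.706 FPKM) to 0.29 in Zfp956 (16.001 ± 4.70 and 19.2 ± 3.19 FPKM). Leaving out 1 library moved Zfp708 to between −0.61 (without 5xFAD-1) and −0.18 (without 5xFAD-3), Zfp746 to −0.053 without 5xFAD-2, and Zfp956 to 0.16 without Normal-11 and to 0.46 without Normal-22.

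On chromosome 8 (chr8:69209038-69749970) all 3 members of a cluster were above 0, at 0.48 in Zfp930, 0.35 in Zfp964 and 0.26 in Zfp963. Zfp964 measured 5.397, 4.77, 8.59 and 6.41 FPKM in wild type against 8.23, 7.75, 6.70 and 8.80 FPKM in 5xFAD. As in Zfp930, Normal-22 stood with the 5xFAD libraries and the other 3 wild type libraries below them. Its log2 fold change was 0.51 without Normal-22 (adjusted p = 0.167, limma) and 0.23 without Normal-21. Zfp963 had 6.11 ± 1.23 FPKM in wild type against 7.26 ± 0.665 FPKM in 5xFAD, and shared 36.2% of its stretches with Gm20422 and, in part, Zfp964. Among numbered Zfp genes nearby that are not members, Zfp868 ranged from 8.41 to 17.6 FPKM in wild type and from 16.5 to 19.96 FPKM in 5xFAD, again with Normal-22 high. Its log2 fold change was 0.69, larger than that of any member, Zfp869 had one of 0.05 and Zfp866 one of −0.25, so that genes of the same stretch of chromosome 8 lay on both sides of 0. None of the members of this cluster passed the adjusted p.

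**Figure D4:**
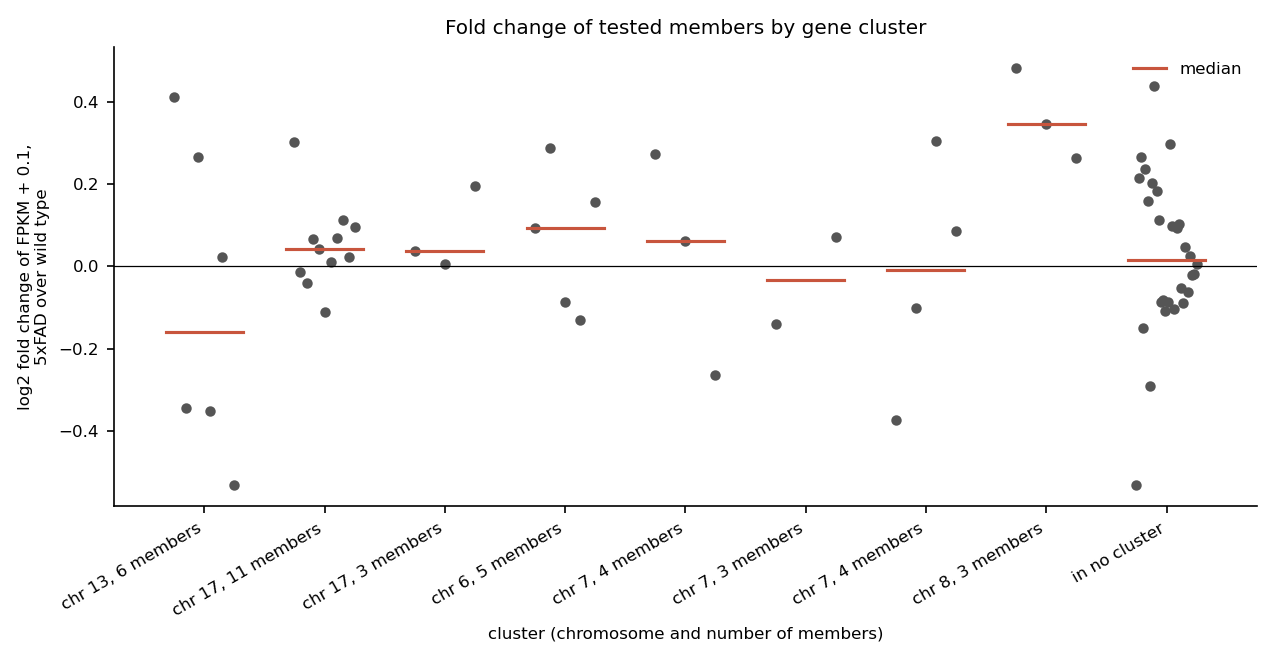
Log2 fold change of FPKM + 0.1, 5xFAD over wild type (vertical axis), of each tested member (points) by gene cluster, with the median of each cluster as a line. The 11 genes on chromosome 17 run from −0.11 to 0.30 in Zfp948, those on chromosome 13 spread to both sides, and the 3 on chromosome 8 are all above 0.

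The domain content of the proteins, which the choice of genes did not use, was set beside the fold changes. The 52 tested members with a KRAB A box had a median log2 fold change of 0.045 (34 above 0 and 18 below) and a median level of 7.26 FPKM. The 13 without one had a median of −0.087 (6 above 0 and 7 below) at 6.90 FPKM. By fingers, the medians were 0.093 in the 11 members with 0 to 7, 0.043 in the 29 with 8 to 11 and 0.025 in the 25 with 12 or more. No test between these groups was made.

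The partners of KRAB zinc finger proteins were described from a list of 41 genes, of which 38 were tested. TRIM28, the co-repressor that the KRAB domain binds, is encoded by Trim28, which measured 33.9 ± 5.55 FPKM in wild type glands against 33.9 ± 4.18 FPKM in 5xFAD glands. Its log2 fold change was 0.01 with a 95% interval from −0.31 to 0.32. Setdb1, the methyltransferase that marks histone H3 at the silenced site, measured 11.2 ± 1.28 and 10.7 ± 0.821 FPKM and had −0.06 with an interval from −0.32 to 0.20. Of the 38 genes none passed the adjusted p, 4 were lower at an unadjusted p under 0.05 and 0 higher, beside the 3.35% and 4.6% of all tested genes. The count of 4 became 2 with equal protein-coding totals, 2 with a replicate block and 1 with the pinealocyte sum as a term. Of all tested genes 8.43%, 5.28% and 4.45% were at that p in either direction in these 3 settings. Their median log2 fold change was −0.056, with 15 above 0 and 23 below.

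The smallest p values among the co-repressor genes belonged to Hdac1 and Dnmt3a. Hdac1, a histone deacetylase of the NuRD complex, had 26.8 ± 1.83 FPKM in wild type against 21.3 ± 1.63 FPKM in 5xFAD, with all 5xFAD libraries below all wild type libraries, a log2 fold change of −0.33 ± 0.10 and an adjusted p of 0.545 (limma). Dnmt3a, a DNA methyltransferase, had 12.6 ± 1.36 and 8.79 ± 1.86 FPKM, also without overlap, with −0.53 ± 0.16 and an adjusted p of 0.556. In the other direction the smallest p values were those of Suv39h1, a histone methyltransferase, at 9.32 ± 1.73 and 11.002 ± 1.41 FPKM (adjusted p = 0.699), and Cbx3, an HP1 protein, at 46.5 ± 7.24 and 52.9 ± 5.16 FPKM (adjusted p = 0.713). Non-overlapping groups were seen in 5 of the 38 genes, all lower in 5xFAD, where 2.23% of all tested genes were.

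Since pools of glands may differ in their cell content, each member's log2(FPKM + 0.1) was compared with the log2 summed FPKM of 3 marker lists over the 8 libraries. The same was done for all tested protein-coding genes, leaving a list's own genes out of its relations, which gave 39256 relations. The p values are two-sided, from an exact permutation test over all 40320 pairings, and were adjusted over the 39256 relations. The pinealocyte sum was 1752, 1564, 3534 and 2232 FPKM in the wild type pools, and 3849, 3444, 2375 and 2542 FPKM in those of 5xFAD. It is not weighted, so abundant genes such as Tph1, at 613 FPKM in Normal-21 and 1900 FPKM in 5xFAD-2, lead it. Asmt, on the same list, ran from 10.4 to 14.8 FPKM. It stood at 14.5 FPKM in Normal-21, with the lowest sum, and at 11.8 FPKM in 5xFAD-1, with the highest. How far each gene of the list follows the sum was not tested. An unadjusted p under 0.05 was found with it in 12 of the 65 members (18.5%), where 25.6% of all tested genes had one. By Pearson's r, no member and no other gene passed the adjustment. A positive r was found in 46 members (70.8%), beside 51.8% of all tested genes.

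Zfp938 had the smallest p of the members, with Pearson's r of 0.953 (p = 0.000248, adjusted p = 0.064, exact permutation) and Spearman's rho of 0.976 (p = 0.000397, adjusted p = 0.0683, exact permutation). Its r was 0.958 without the 2 libraries farthest from the median sum, Normal-21 and 5xFAD-1, and 0.951 without Normal-22. The levels of Zfp938 were 10.1, 9.31, 13.7 and 10.9 FPKM in wild type against 16.2, 12.8, 12.04 and 11.8 FPKM in 5xFAD, so that Normal-22 again stood among the 5xFAD libraries. Zfp930 had r = 0.927 (p = 0.00159, adjusted p = 0.0731, exact permutation) and rho = 0.929 (p = 0.00223, adjusted p = 0.0899, exact permutation), with r = 0.857 without the same 2 libraries and 0.915 without Normal-22. Zfp964 had r = 0.887, or 0.866 without Normal-22, and Zfp759 had r = 0.886, while Zfp760 ran the other way at r = −0.815. With the log2 pinealocyte sum as a term, an alternative added after the values were seen, the log2 fold change of Zfp930 was 0.19 (adjusted p = 0.995), that of Zfp938 0.04, and the median of the members −0.0015. The pinealocyte sum and genotype overlap in these 8 libraries, and their parts were not told apart. With 4 libraries in a group, no correlation was computed within a genotype or within a class of unread bases.

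**Figure D5:**
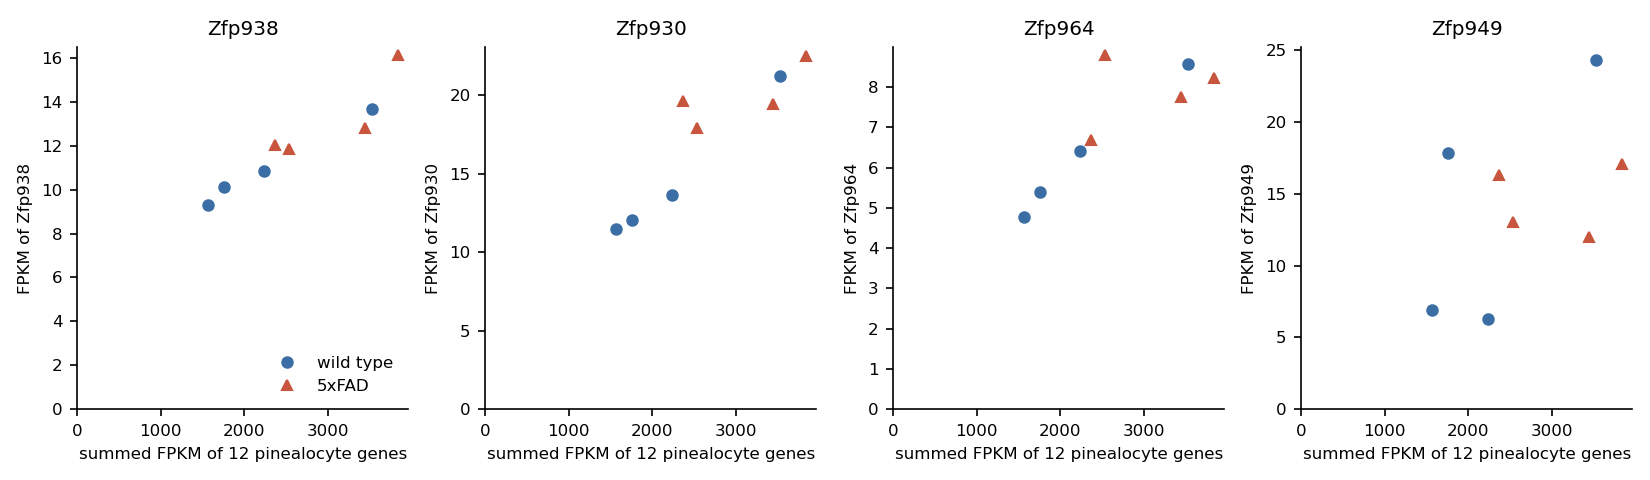
FPKM of Zfp938, Zfp930, Zfp964 and Zfp949 (vertical axes, from 0) against the summed FPKM of 12 pinealocyte markers (horizontal axes) in the 4 wild type (circles) and 4 5xFAD (triangles) libraries. On the log2 scale r over all 8 libraries was 0.953 in Zfp938, 0.927 in Zfp930, 0.887 in Zfp964 and 0.516 in Zfp949, and none of them passed the adjustment.

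Of the other lists, the osteoblast sum gave an unadjusted p under 0.05 in 10 of the 65 members (15.4%), where 24.4% of all tested genes had one. With the neutrophil sum the count was also 10 (15.4%), beside 25.7% of all tested genes. By Pearson's r no gene passed the adjustment with either sum, and no member did by rho. The member with the smallest p with the osteoblast sum was Zfp956, a gene of the chromosome 6 cluster without a KRAB A box by the search used. Its levels were 11.9, 13.1, 22.4 and 16.7 FPKM in wild type against 18.6, 17.1, 17.1 and 23.8 FPKM in 5xFAD, highest in Normal-22 and 5xFAD-21, which have the lowest osteoblast sums (84.7 and 37.2 FPKM). Pearson's r was −0.953 (p = 0.000347, adjusted p = 0.064, exact permutation) and rho was −0.976 (p = 0.000397, adjusted p = 0.0683, exact permutation). The r was −0.909 without 5xFAD-21 and Normal-11, the 2 farthest libraries, and −0.945 without Normal-22. The library normalization of these FPKM is not given, and median-ratio scaling left the median log2 fold change of the members at 0.043. Whether a large RNA from other cells in a pool lowers the values of the rest, and its part in these relations, was not tested.

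How far reads can be assigned to 1 gene was read from the transcripts, since the sequencing had 100 cycles per read. Of the 73 members, 34 had no stretch of 100 bases in common with any other gene, the median share was 0.107%, and 12 shared more than 10%. Above 50% were Zfp967 (100%), Zfp784 (94.6%), Zfp708 (94.3%), Zfp781 (92.4%), Zfp960 (68.3%) and Zfp935 (56.1%). The member listed as Zfp935 is named Gm49359 in GENCODE M21, and it shares its stretches with another gene that M21 calls Zfp935. In Zfp784 the shared bases lie on the opposite strand, within Zfp865, and the strand setting of the counting is not given in the sources used here. Zfp932, which represses endogenous retroviruses together with its paralog Gm15446, shared 18.5% of its stretches, mainly with that paralog, and stood at 15.2 ± 1.72 FPKM in wild type against 14.6 ± 1.39 FPKM in 5xFAD. Levels of the genes above 50% are uncertain as levels of a single gene. The 2 members with separate groups, Zfp738 and Zfp771, and Zfp930 were not among them.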

How the data were processed

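Total RNA of 8 pools of pineal glands was depleted of ribosomal RNA and sequenced as paired reads of 100 cycles with a stranded kit. The deposited values are FPKM per gene and library, which the authors made by trimming reads with Trimmomatic, aligning them with STAR to GRCm38.p6 (mm10) and running Cuffnorm on GENCODE release M17. Tool versions, the library normalization and the strand setting are not given in the sources used here, nor do the deposited values hold counts, so depth is not recovered from them and no interval or floor on it is given.

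From the FPKM, members with a mean of at least 1 over 8 libraries were tested with all 13094 such protein-coding genes by limma 3.58.1 (lmFit, eBayes with trend, R 4.3.3) on log2(FPKM + 0.1), 5xFAD minus wild type, without covariates, with Benjamini-Hochberg adjustment over those genes. Fold changes on that scale understate those of low genes. The fit was tested on simulated data. Coordinates and transcripts are from GENCODE M21 (GRCm38), to which 53616 of 53710 IDs and all 73 members matched by ID (1 under another name). Domains were searched in translations of those transcripts in place of RefSeq proteins, and the limit of 15 identical residues for a KRAB A box was set after seeing the gap from 12 to 17. Correlations used scipy 1.17.1 and tables pandas 2.3.3 in Python 3.11.15.

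Named are the 8 tested members with the smallest p in each direction, those with separate groups, the 6 with the highest mean, Trim28, Setdb1, the 2 smallest p per direction of the co-repressor list and genes that check labels, of which 1 is not reported here. Other named genes were picked after their values were seen. The members and all lists were chosen with earlier results of these data known. Alternatives were pseudocounts of 0.01 and 1, other filters, scalings and quantile normalization, the class of unread bases as a term, a replicate block, no trend, array weights, leaving out each library and, added after seeing the data, the pinealocyte sum as a term and marker relations without Normal-22. Labels call the 4 samples of a group biological replicates, each a pool of mice.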

Additional observations from a re-analysis of the deposited data

Results flagged for a closer look

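Among the 25 named members, the 4 libraries of each group were searched for 1 that stands apart, by the gap to its nearest neighbour over the whole range of the group (Dixon's test at its 95% critical value). Of the 50 groups tested 3 held such a library, and chance gives about 1 in 20. Zfp747 was 3.502 FPKM in Normal-21, against 2.287, 2.305 and 2.357 FPKM in the other wild type libraries. Zfp771 was 8.211 FPKM in Normal-21, against 5.122, 5.284 and 5.623 FPKM in the others. Zfp951 was 2.451 FPKM in Normal-23, against 3.062, 3.109 and 3.126 FPKM in the others. Zfp747 and Zfp771 lie in the same cluster on chromosome 7 (chr7:127244274-127406822). Without Normal-21 the log2 fold change was 0.45 in Zfp747, in place of 0.31, and −0.22 in Zfp771, in place of −0.37, and neither passed the adjusted p (limma). Without Normal-23 that of Zfp951 was −0.62, in place of −0.53.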

How the results depend on the processing

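No member passed an adjusted p of 0.05 in limma under any of the 22 settings, and the lowest value was 0.0541, in Zfp930 without Normal-22. Members higher at an unadjusted p under 0.05 numbered 2 with a minimum mean of 0.2 FPKM, 2 without the trend, 6 with array weights, 0 with the pinealocyte sum as a term and 0 to 5 when a library was left out, the 5 without Normal-22 and 0 without Normal-11, Normal-21, Normal-23 or 5xFAD-1. Those lower numbered 2 with unread bases as a term, 2 without the trend, 2 with array weights, 0 with the pinealocyte sum and 1 to 2 when a library was left out, the 2 without Normal-11, Normal-22 or 5xFAD-3. In either direction, 4.35%, 6.15% and 12.3% of the members were at that p with a minimum mean of 0.2 FPKM, without the trend and with array weights. Of all tested genes 8.07%, 7.89% and 14.2% were. With unread bases as a term the shares were 4.62% of the members and 12.3% of all tested genes. The median of the members was −0.0015 to 0.074 over all settings. That of the co-repressor genes was −0.0082 with array weights and −0.079 to −0.011 when a library was left out. Reversed log2 fold changes were 0.011 and 0.065 in Zfp788 with equal protein-coding totals and with array weights, −0.10 and −0.086 in Zfp931 with unread bases and with the pinealocyte sum, −0.062 in Zfp949 with the pinealocyte sum and −0.074 in Zfp948 with unread bases. When a library was left out, Zfp950 lay at −0.15 to 0.00051, Zfp931 at −0.016 to 0.15, Zfp788 at −0.12 to 0.063 and Zfp948 at −0.087 to 0.56. The causes were not tested. Co-repressor genes at an unadjusted p under 0.05 numbered 4, and 5 without a filter or with unread bases as a term. They numbered 3 with median-ratio scaling, 2 with equal protein-coding totals or a replicate block and 1 with the pinealocyte sum. When a library was left out they numbered 2 to 6, the 6 without Normal-22 and the 2 without Normal-11 or 5xFAD-2. Of all tested genes 7.95% were at that p in the main fit, 18.1% without Normal-22 and 12.3% with unread bases as a term. Without Normal-11 and without 5xFAD-2 these shares were 6.29% and 5.16%. Without Normal-22, 10, 10 and 6 members had an unadjusted p under 0.05 with the pinealocyte, osteoblast and neutrophil sums, in place of 12, 10 and 10. Of all tested genes 21.4%, 17.7% and 14% had one without that library. Of the other 92 values of member counts and of medians, the counts equalled those of the main fit. The medians among them moved by less than the spread between libraries. The other 528 values of single genes kept their direction and their side of the adjusted p threshold.

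Replicate numbers were not used to pair the samples in the main fit. The correlations of deviations from the group means in same-numbered libraries were −0.04, 0.21, −0.34 and 0.24. Of the wild type libraries, only Normal-23 correlated best with the 5xFAD library of the same replicate number, 5xFAD-21. With 4 libraries a group, these values cannot exclude a pairing. With a replicate block 0 members passed the adjusted p, 1 was higher and 1 lower at an unadjusted p under 0.05, the medians were 0.043 and −0.056, and the share of all tested genes at that p was 5.28% in place of 7.95%. The count of all tested genes past the adjusted p was 5, and 94 without Normal-22, 9 with array weights, 8 without a filter and 0 among genes above 0 in every library. FPKM without counts give no depth, and 4 libraries a group limit what can be detected.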

Other observations

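Genes with a matching name but annotated as transcribed unprocessed pseudogenes, Zfp783 and Zfp939, were not members and were looked at after their values were seen. Zfp783 on chromosome 6 measured 14.6, 17.3, 31.5 and 23.01 FPKM in wild type and 23.6, 14.6, 21.3 and 31.5 FPKM in 5xFAD, in the order of the library numbers. It was highest in Normal-22 and 5xFAD-21, as was Zfp956, with which it shares 3.21% of the Zfp956 stretches of 100 bases. Zfp939 varied little, from 3.504 to 4.56 FPKM.

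The 233 other tested genes named Zfp and a number had 88 log2 fold changes above 0 and 145 below. At an unadjusted p under 0.05 there were 6 higher and 14 lower in 5xFAD (8.58%), beside 7.95% of all tested genes. None of them passed the adjusted p in limma. The groups did not overlap in 6 genes with 5xFAD above and 12 with 5xFAD below (7.73%), beside 4.34% of all tested genes. These counts are a description, and the difference from the members was not tested.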
